A study of Mus musculus with 4 samples.

Results

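The 8 genes described here are Pdk4, Angptl4, Cpt1a, Cpt2, Acadm, Acadl, Hadha and Plin2. They encode enzymes of fatty acid oxidation and other well-known targets of the PPARs. They were chosen by name among the 18193 genes that the arrays measured, with earlier results of these data known. A gene's members were the probe sets whose platform symbol was exactly that name. This gave 13 of the 45101 probe sets of a series on Affymetrix mouse genome arrays, a 1-colour microarray in which each probe set reads 1 stretch of transcript. Where a gene had several probe sets it was read from the one with the highest mean over the 4 arrays, and the others are given beside it. The label of the group fitted the genes' known functions, but the 8 did not move as 1 group. Pdk4 and Angptl4 were higher after tamoxifen at 12 hours and at 2.5 days, and Plin2 was higher and Acadm lower at 2.5 and 4.5 days, by more than any control probe set differed. The values of Plin2 and Acadm at 12 hours, of Pdk4 and Angptl4 at 4.5 days, and of Cpt1a, Cpt2, Acadl and Hadha at all 3 times lay within the differences seen between control probe sets.

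The tissue was the epithelium of the gastric corpus, the acid-secreting part of the stomach. All mice were wild type and 6 weeks old when treated, and came from C57BL/6, BALB/c and FVB/N stocks that the labels do not tie to an array. The 4 groups were vehicle at 2.5 days and tamoxifen at 12 hours, at 2.5 days and at 4.5 days, each 1 array of RNA pooled from 3 mice. Tamoxifen, a selective estrogen receptor modulator, was given into the peritoneum at 5 mg for each 20 g of body weight. The carrier was sunflower seed oil (90%) with ethanol (10%). Dosing lasted 1 or 3 days, which the labels do not assign to arrays, and its stated purpose was to bring about SPEM, a metaplasia in which corpus glands take on features of mucous neck cells. Vehicle was measured at 2.5 days only, so the 12-hour and 4.5-day comparisons also differ in time of collection, and all 3 comparisons share that 1 vehicle array. With 1 array in each group the spread between mice cannot be estimated and no test across samples exists.

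Fatty acids are burned mainly in mitochondria. They are activated to acyl-CoA, carried across the mitochondrial membranes as carnitine esters, and shortened in repeated rounds of beta-oxidation. The PPARs (alpha, delta and gamma) are nuclear receptors that bind fatty acids and their derivatives, pair with a retinoid X receptor, and raise transcription of many of these genes. Several of their targets are not oxidation enzymes at all: PDK4 is a kinase that switches off pyruvate dehydrogenase and so spares glucose, ANGPTL4 is a secreted inhibitor of lipoprotein lipase, and PLIN2 coats intracellular lipid droplets. Parietal cells, the acid-secreting cells of the corpus, are among the cells richest in mitochondria in the mouse.

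PPARs bind direct repeats of the hexamer AGGTCA with 1 base between them, so the start regions of the genes were searched for this hexamer. Promoter windows from RefSeq (build GRCm38.p6) were at hand for 7 of the 8 genes, Angptl4 being the other one. They ran from 250 bases before to 50 bases after a start assigned to the gene. The windows printed are those of Pdk4, which had the widest range over the arrays, Plin2 and Acadm, which moved in opposite directions, and Cpt1a, which moved little. Capitals mark AGGTCA or, on the other strand, TGACCT.
Pdk4: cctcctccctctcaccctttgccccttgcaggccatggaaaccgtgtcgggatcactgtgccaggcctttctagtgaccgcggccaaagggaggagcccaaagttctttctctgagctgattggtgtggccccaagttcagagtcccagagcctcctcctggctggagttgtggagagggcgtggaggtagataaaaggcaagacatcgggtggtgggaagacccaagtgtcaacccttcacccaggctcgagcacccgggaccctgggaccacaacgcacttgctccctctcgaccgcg
Plin2: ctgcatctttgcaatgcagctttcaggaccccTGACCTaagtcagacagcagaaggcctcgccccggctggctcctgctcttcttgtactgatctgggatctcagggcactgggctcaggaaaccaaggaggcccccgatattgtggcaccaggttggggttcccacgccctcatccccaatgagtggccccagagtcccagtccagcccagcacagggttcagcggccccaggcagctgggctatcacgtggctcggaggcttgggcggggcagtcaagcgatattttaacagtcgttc
Acadm: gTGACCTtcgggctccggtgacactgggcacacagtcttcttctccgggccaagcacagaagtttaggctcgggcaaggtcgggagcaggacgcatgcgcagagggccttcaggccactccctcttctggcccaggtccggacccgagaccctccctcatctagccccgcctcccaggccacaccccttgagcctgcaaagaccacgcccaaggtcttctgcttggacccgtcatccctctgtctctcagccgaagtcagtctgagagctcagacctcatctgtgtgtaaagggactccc
Cpt1a: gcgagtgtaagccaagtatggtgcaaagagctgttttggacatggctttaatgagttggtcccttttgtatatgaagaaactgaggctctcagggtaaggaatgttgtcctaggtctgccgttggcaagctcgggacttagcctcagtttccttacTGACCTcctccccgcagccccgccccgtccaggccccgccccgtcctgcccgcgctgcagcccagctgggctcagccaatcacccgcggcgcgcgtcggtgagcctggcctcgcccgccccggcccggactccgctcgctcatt
The windows lie at chr6:5496229-5496528 (minus strand), chr4:86670010-86670309 (minus strand), chr3:153944594-153944893 (minus strand) and chr19:3323051-3323350 (plus strand). For Plin2 and Cpt1a the start used lies inside the outer bounds of the gene, which begin at chr4:86670217 and chr19:3322326. The whole Cpt1a window thus lies within those bounds. The hexamer, searched on both strands, was in 3 of the 7 windows, once each in Plin2, Acadm and Cpt1a, and each time as TGACCT. Of all 32851 promoter windows of this length 16.3% held it. The full repeat AGGTCANAGGTCA was in none of the 7 windows and in 0.0396% of all windows. TCAAGGTCA, the longer element of estrogen-related receptors, which also contains the hexamer, was in none of the 7 and in 0.423% of all. Pdk4, Cpt2, Acadl and Hadha had no hexamer in their windows. Whether the hexamer has a part in the differences between arrays was not tested. A match describes these letters only, and the search covers these windows only.

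Levels are given as log2 RMA values, the unit of the deposited table, and differences as tamoxifen minus vehicle on that log2 scale, so that 1 is 2-fold. The 4 arrays had medians between 5.30 and 5.34. Control transcripts added before hybridisation, 18 probe sets, differed between tamoxifen and vehicle arrays with an SD of 0.10, 0.08 and 0.08 at 12 hours and at 2.5 and 4.5 days. Poly-A controls, which are added before labelling, differed more, with SDs of 0.19, 0.11 and 0.21. The largest difference of any control probe set was 0.64 at 12 hours, 0.31 at 2.5 days and 0.72 at 4.5 days, and these values are used below as a technical yardstick. They hold no variation between mice. Signal at the 3' end exceeded that at the 5' end by 0.84 to 1.0 for Actb and by 0.45 to 0.51 for Gapdh on the 4 arrays. The arrays also differed in cell types outside the glands: 6 of 6 measured pancreatic acinar markers were at least 2-fold higher than vehicle at 12 hours, with a median difference of 7.21, and 6 of 7 squamous markers at least 2-fold lower. In bulk samples such as these, fewer cells of a type and less RNA per cell cannot be told apart. Centring the arrays on the hybridisation controls in place of the RMA scale shifts all differences up by the size of the controls' mean, -0.13 at 2.5 days and -0.16 at 4.5 days.

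Among the 8 genes, all of which lay above the array medians on all 4 arrays, 2 were at least 2-fold higher than vehicle at 12 hours, 1 at 2.5 days and none at 4.5 days. None was at least 2-fold lower at any of these times. Of all expressed genes, 0.996%, 3.32% and 3.8% were at least 2-fold higher at 12 hours and at 2.5 and 4.5 days, and 1.92%, 1.94% and 2.72% at least 2-fold lower. The median difference of the 8 genes was 0.23 at 12 hours, 0.10 at 2.5 days and -0.06 at 4.5 days. Over all expressed genes, 12253 to 12303 in number, it was -0.04, 0.02 and -0.005. The 4.5-day median of the 8 genes turned to 0.10 when centred on the hybridisation controls. At or past 1.5-fold, 3, 3 and 2 of the 8 were higher and 0, 1 and 1 lower at the 3 times. Of all expressed genes 3.37%, 9.69% and 10.7% were higher by that much, and 5.66%, 6.03% and 8.21% lower. Between tamoxifen arrays, none of the 8 was past 2-fold at 2.5 days against 12 hours, where 2.58% of expressed genes were higher and 0.655% lower. At 4.5 days against 2.5 days 0 were higher, as were 0.248% of expressed genes, and 1 was lower, as were 0.182%. The 2 genes past 2-fold at 12 hours were Pdk4 and Angptl4, and the 1 at 2.5 days was Angptl4.

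**Figure D1:**
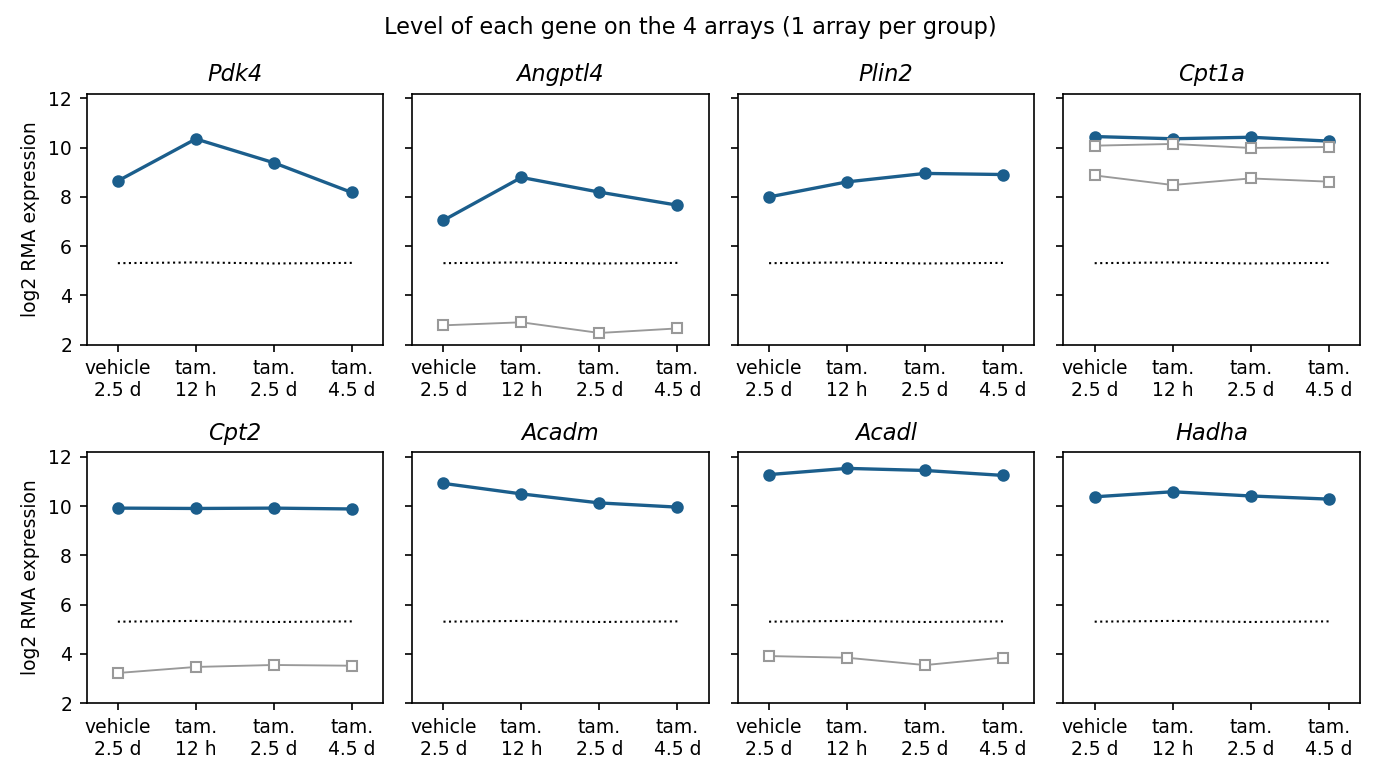
Level of each of the 8 genes (log2 RMA, y axis) on the 4 arrays (x axis, 1 array per group). Filled circles are the probe set used, open squares the gene's other probe sets and the dotted line the median of all probe sets on the array. Pdk4 and Angptl4 peak on the 12-hour array, whereas Cpt1a, Cpt2, Acadl and Hadha are almost level and Acadm descends.

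Pdk4, the kinase that inactivates pyruvate dehydrogenase, had the widest range of the 8 genes. Its level was 8.65 with vehicle and 10.36, 9.39 and 8.18 at 12 hours and at 2.5 and 4.5 days of tamoxifen. The 12-hour array was the highest, the 2.5-day array came next, and the 4.5-day array lay below vehicle. The differences from vehicle were 1.71 (3.26-fold), 0.74 and -0.47. The first and second were past the largest control difference and the third was not. At 12 hours Pdk4 ranked 48 among 12253 expressed genes, counted from the highest difference. From 2.5 to 4.5 days its level was lower by 2.31-fold, a difference of -1.21 that ranked 13 of 12117 counted from the lowest. Pdk4 was the 1 gene of the 8 past 2-fold in that step. Between 12 hours and 4.5 days the level differed by -2.17, or 4.51-fold. Only 1 probe set reads this gene.

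Angptl4, which encodes the lipoprotein lipase inhibitor, had a level of 7.05 with vehicle and of 8.79, 8.19 and 7.67 at 12 hours and at 2.5 and 4.5 days. Here all 3 tamoxifen arrays lay above vehicle, and they stepped down with time. The differences were 1.74 (3.34-fold), 1.14 (2.21-fold) and 0.61, of which the last was within the largest control difference. Angptl4 ranked 46 of 12253 expressed genes at 12 hours and 287 of 12295 at 2.5 days. Its level was lower by 0.60 at 2.5 days than at 12 hours and by 0.53 at 4.5 days than at 2.5 days, both just past the control differences of those pairs of arrays, 0.44 and 0.52. The probe set behind these values carries the suffix _s_at, by which Affymetrix marks probes that can match more than 1 transcript. The other probe set of Angptl4 lay between 2.47 and 2.91, under the array median on all 4 arrays, and gave differences of 0.12, -0.31 and -0.13.

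Plin2, which encodes the droplet coat protein, had a level of 8.0 with vehicle, and then 8.61, 8.95 and 8.91 at the 3 times. The 3 tamoxifen arrays were all higher than vehicle, and the later pair lay close together. The differences were 0.61, 0.95 and 0.91. That at 12 hours was within the largest control difference (0.64) and the later ones were past it, at 1.94-fold and 1.88-fold. The 0.64 came from a poly-A control, and the largest difference of a hybridisation control at 12 hours was 0.205. Counted from the highest, Plin2 ranked 372 of 12253 expressed genes at 12 hours, 458 of 12295 at 2.5 days and 577 of 12303 at 4.5 days. No neighbouring pair of arrays, taken in order of level, differed by more than the controls. Pdk4 and Angptl4 were thus nearest to vehicle at 4.5 days and Plin2 at 12 hours. Whether these time courses differ was not tested.

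The 12-hour values of Pdk4 and Angptl4 stand on the array with the acinar signal, on which Cela2a, a pancreatic elastase, was 9.32 above vehicle. What part acinar RNA has in them was not tested. At 2.5 days the 6 acinar markers, expressed or not, had a median difference of -0.28 from vehicle. The 3 of them that counted as expressed had a median of -0.21. Squamous markers at that time had a median of -0.54, with members on both sides of vehicle. Macrophage markers, 6 of 6 measured, were above vehicle at 2.5 days with a median of 1.03, and 3 of them were past 2-fold. The median of the macrophage markers at 12 hours was 0.35. Of 6 measured adipocyte markers 5 were expressed, of which 3, 2 and 2 lay above vehicle at the 3 times, with medians of 0.18, -0.27 and -0.14. The lowest of them, Adipoq, which encodes the fat cell hormone adiponectin, was at 8.04 with vehicle and at 7.28, 6.97 and 6.99 with tamoxifen, lower at each time. The leptin gene Lep, another adipocyte marker, lay between 3.22 and 3.65, under the array medians. Smooth muscle markers, 5 in number, had a mean level of 11.76 with vehicle. All of them lay below vehicle at each time, with medians of -0.43, -0.77 and -0.69. What part smooth muscle has in the values of any gene here was not tested.

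**Figure D2:**
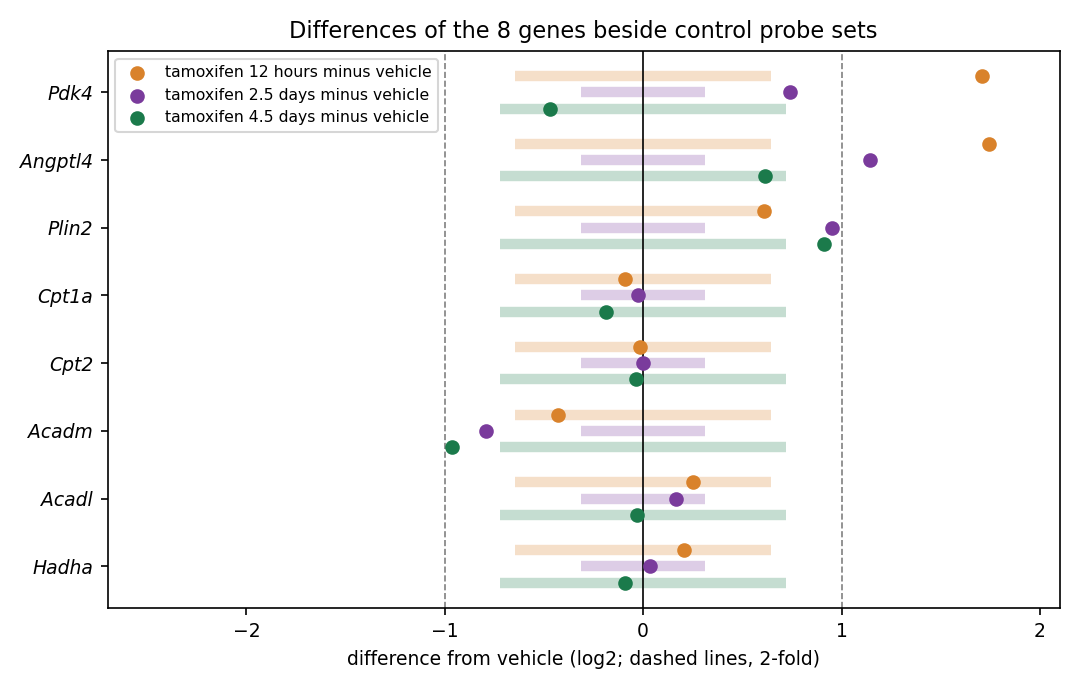
Difference of each of the 8 genes from vehicle (x axis, log2) at 12 hours and at 2.5 and 4.5 days (colours). The pale bar behind each point runs over plus and minus the largest control probe set difference of that comparison, and dashed lines mark 2-fold. Pdk4 and Angptl4 lie outside the bars at 12 hours and 2.5 days, Plin2 and Acadm at 2.5 and 4.5 days, and the remaining 4 genes inside them at all 3 times.

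The carnitine shuttle genes were almost level. CPT1A, on the outer mitochondrial membrane, joins long-chain acyl groups to carnitine and is the main control point of entry, and CPT2, on the inner membrane, reverses that step. Cpt1a had a level of 10.45 with vehicle and of 10.36, 10.42 and 10.27 at the 3 times, so the 4 arrays lay within 0.19 of each other. Its differences were -0.09, -0.03 and -0.19, and the one at 2.5 days turned to 0.10 when centred on the hybridisation controls. The other 2 probe sets of Cpt1a, both above the array medians, gave 0.07, -0.09 and -0.05, and -0.39, -0.12 and -0.25. The probe set used and the third one carry the suffix _x_at, given where probes may cross-hybridise. Cpt2 was at 9.92 with vehicle and at 9.91, 9.92 and 9.89 after tamoxifen, so the differences were at most 0.03 in size and took either sign with the centring. Its second probe set lay between 3.23 and 3.55, under the array medians.

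Of the enzymes that shorten the chain, Acadm differed and Acadl and Hadha did not by more than the controls. ACADM is the medium-chain acyl-CoA dehydrogenase, and its gene had a level of 10.93 with vehicle and of 10.50, 10.13 and 9.96 at 12 hours and at 2.5 and 4.5 days. Each later array was lower than the one before, but no single step was past the largest control difference of its pair of arrays. The differences were -0.43, -0.79 (1.73-fold) and -0.96 (1.95-fold), the last 2 past the largest control difference. Counted from the lowest, Acadm ranked 395 of 12295 expressed genes at 2.5 days and 365 of 12303 at 4.5 days. It has 1 probe set.

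Acadl encodes the long-chain dehydrogenase of the same enzyme family. Its level was 11.28 with vehicle and 11.53, 11.45 and 11.25 with tamoxifen, giving differences of 0.25, 0.17 and -0.03, the last turning to 0.13 when centred on the hybridisation controls. Its second probe set, between 3.55 and 3.91, was under the array medians. Hadha encodes the alpha subunit of the mitochondrial trifunctional protein, which catalyses later steps of each round. It was at 10.38 with vehicle and at 10.59, 10.41 and 10.29 with tamoxifen, with differences of 0.21, 0.03 and -0.09, of which the later ones changed sign with 1 or other centring. For neither gene did any neighbouring pair of arrays, taken in order of level, differ by more than the controls.

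Parietal cell markers were lower on the same arrays as Acadm. Of 9 measured parietal markers, 6, 7 and 7 were at least 2-fold lower than vehicle at 12 hours and at 2.5 and 4.5 days. Their medians were -1.24, -1.34 and -1.14. Centred on the hybridisation controls, 6, 6 and 4 were at least 2-fold lower, with medians of -1.29, -1.21 and -0.98. The proton pump gene Atp4a, for instance, was at 13.38 with vehicle and at 12.71, 12.04 and 12.28 with tamoxifen. Chief cell markers, 6 in number, had medians of -0.19, -1.48 and -2.41. The part of either cell type in the Acadm values was not tested.

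Other genes of the pathway were taken from 12 lists of 133 entries, of which 119 were measured. The 13 further genes of mitochondrial beta-oxidation were all expressed, and none was past 2-fold at any time. Of them 11, 12 and 12 lay below vehicle at 12 hours and at 2.5 and 4.5 days, with medians of -0.24, -0.18 and -0.36. Centred on the hybridisation controls, 11, 10 and 10 lay below. Hadh, the short-chain hydroxyacyl-CoA dehydrogenase gene, was at -0.50, -0.44 and -0.62, and its 3 probe sets gave nearly the same values. Eci1 and Eci2 encode enoyl-CoA isomerases, which handle unsaturated chains. Eci1 was at -0.33, -0.18 and -0.63, while Eci2 went the other way, at 0.50, 0.84 and 0.38.

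Among 8 measured genes of fatty acid activation and the carnitine shuttle, 1 was past 2-fold. This was Acsl4, an acyl-CoA synthetase with a preference for polyunsaturated fatty acids such as arachidonic acid. It had a level of 8.48 with vehicle and of 8.72, 9.40 and 9.69 with tamoxifen, and differed by 0.25, 0.92 and 1.21. All 3 of its probe sets were higher than vehicle at 4.5 days, by 1.14 to 1.32. Other synthetase genes named by the same rule were Acsl3, at -0.11, 0.12 and 0.37, and Acsl6, at -0.41, -0.62 and -0.80. The 12 expressed genes of peroxisomal beta-oxidation had medians of -0.01, -0.07 and -0.05, each of which turned above 0 with 1 of the other centrings, and none passed 2-fold. Of these Ehhadh, the peroxisomal bifunctional enzyme gene and itself a PPAR alpha target, was at 0.17, -0.28 and -0.38. Crot, which makes carnitine esters in peroxisomes, was at -0.11, 0.23 and 0.41, and Scp2, which encodes a sterol carrier and thiolase, at -0.21, -0.30 and -0.43.

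The 3 measured genes of ketone body metabolism were lower than vehicle on each tamoxifen array. Oxct1 encodes the enzyme that activates acetoacetate so that tissues can burn ketone bodies. Its level was 12.49 with vehicle and 11.46, 10.77 and 11.26 at 12 hours and at 2.5 and 4.5 days. The differences of -1.03, -1.73 and -1.23 were past 2-fold at all 3 times (-0.97 at 12 hours when centred on expressed genes), and its 4 probe sets gave -1.03 to -0.91 at 12 hours, -1.89 to -1.51 at 2.5 days and -1.42 to -0.99 at 4.5 days. Acat1, a mitochondrial thiolase gene, was at -0.75, -0.73 and -0.94, and Bdh1, a hydroxybutyrate dehydrogenase gene, at -0.75, -0.55 and -0.35.

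**Figure D3:**
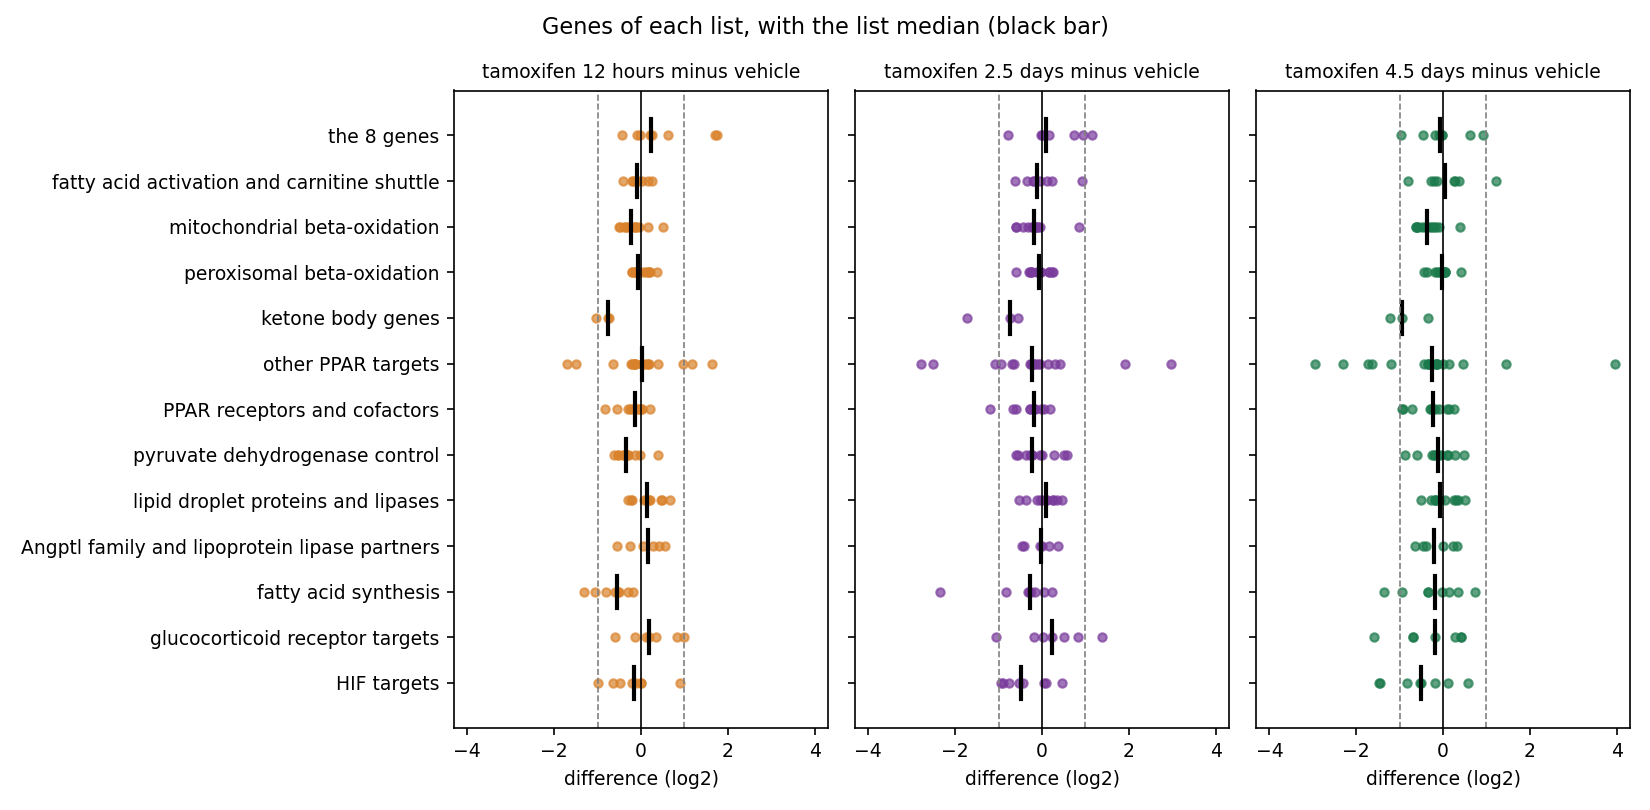
Difference from vehicle (x axis, log2) of every measured gene of the 8-gene group and of the 12 other lists (rows), in 3 panels for 12 hours and at 2.5 and 4.5 days. Each point is a gene, expressed or not, the black bar is the list median and dashed lines mark 2-fold. Mitochondrial beta-oxidation genes cluster just left of 0, while other PPAR targets spread from -2.94 to 3.96 at 4.5 days.

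Other known PPAR targets went in both directions. At 12 hours and at 2.5 and 4.5 days, 8, 4 and 3 of the expressed ones lay above vehicle. Below it lay 7, 11 and 12, and the list medians were 0.02, -0.23 and -0.16. Centred on the hybridisation controls, 6, 6 and 8 lay above vehicle and 9, 9 and 7 below. Of 15 expressed ones, 2 were at least 2-fold higher at each time, and 2, 3 and 5 at least 2-fold lower at 12 hours and at 2.5 and 4.5 days. Centred on expressed genes, 3 were higher at 12 hours and 4 lower at 2.5 days, and centred on the hybridisation controls 2 were lower at 2.5 days. The 2 higher ones were the same genes throughout, Acot1 and Vnn1. Acot1, a cytosolic acyl-CoA thioesterase gene, had a level of 6.43 with vehicle and of 8.06, 8.34 and 7.88 with tamoxifen, with differences of 1.63, 1.91 and 1.45. All 3 tamoxifen arrays were far above vehicle and close to each other. Vnn1, a pantetheinase gene, was at 4.84 with vehicle and at 6.02, 7.81 and 8.80 with tamoxifen. Its vehicle level was under that array's median (5.31), so it counted as expressed only through the tamoxifen arrays. Acot2, the mitochondrial relative of Acot1, was at 8.31 with vehicle and at 9.28, 8.73 and 8.06 with tamoxifen, so it stood above vehicle by 0.96 at 12 hours and below it by 4.5 days. Plin4, from the list of lipid droplet genes and of the same family as Plin2, had differences of 0.68, 0.35 and -0.28.

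Those at least 2-fold lower were genes of fatty acid uptake and handling. Lpl encodes lipoprotein lipase, the enzyme that ANGPTL4 inhibits. Its level was 12.70 with vehicle and 11.20, 10.19 and 9.76 at the 3 times, and its 2 probe sets gave -2.94 and -2.89 at 4.5 days. The Lpl differences were -1.50, -2.51 and -2.94. Fabp3, a fatty acid binding protein gene, was at 10.79 with vehicle and at 9.09, 8.0 and 8.48 with tamoxifen, but its second probe set gave differences of no more than 0.21 in size. The acyl-CoA synthetase and transporter gene Slc27a2 was at -0.64, -1.08 and -1.74, the 2.5-day value being -0.95 when centred on the hybridisation controls. At 4.5 days the count of 5 also held the fatty acid transporter gene Cd36, at -1.65, and Mgll, the monoglyceride lipase gene, at -1.20. Probe sets of Mgll ranged from -1.20 to -0.24 there. Cd36 and Mgll were named after their values were seen.

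**Figure D4:**
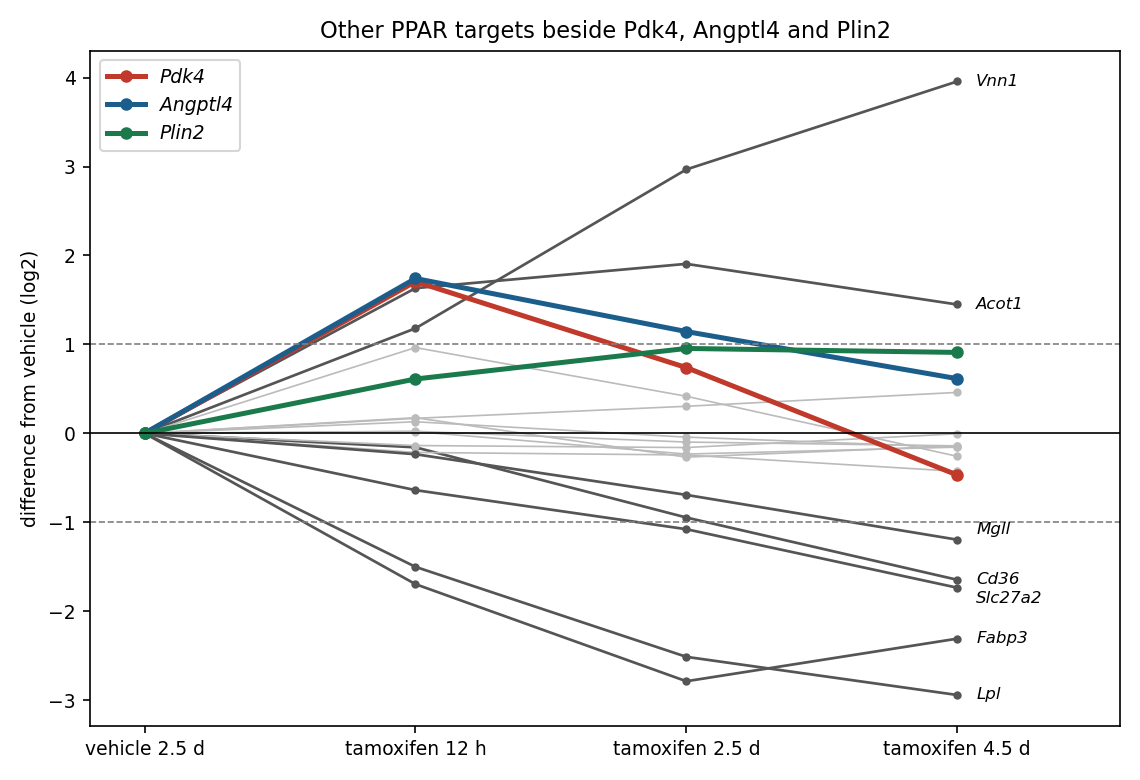
Difference from vehicle (y axis, log2) of the 15 expressed genes of the list of other PPAR targets (grey) beside Pdk4, Angptl4 and Plin2 (colours), with vehicle set to 0 at the left and the 3 times of tamoxifen to the right. Dark grey lines with names reach 2-fold at some time. Acot1 and Vnn1 lie above 1 at all 3 times and Lpl and Fabp3 below -1.

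The receptors themselves showed small differences apart from Ppara. The gene of PPAR alpha, the form that drives fatty acid oxidation in liver, had a level of 5.88 with vehicle and of 5.06, 4.69 and 4.94 with tamoxifen, below the array median on those 3 arrays. Its differences were -0.82, -1.20 and -0.94, and its 3 probe sets gave -1.20 to -0.48 at 2.5 days. Ppard was at -0.06, 0.05 and 0.13 and Pparg at 0.02, 0.19 and 0.24. The coactivator genes Ppargc1a and Ppargc1b, known for raising mitochondrial oxidation, were both lower. Ppargc1a was at -0.13, -0.60 and -0.71 and Ppargc1b at -0.55, -0.66 and -0.91. The probe sets of Ppargc1a, 5 in number, ranged from -1.03 to -0.13 at 12 hours.

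Around Pdk4, 11 other genes of pyruvate dehydrogenase and its control were measured, and none was past 2-fold. Pdk2, a kinase of the same family, was at -0.13, -0.59 and -0.89 over the 3 times. Dlat, a subunit of the complex, was at -0.62 at 12 hours and at -0.04 at 2.5 days (0.09 when centred on the hybridisation controls). Mpc1, of the mitochondrial pyruvate carrier, was at -0.36, -0.55 and -0.61. Of the relatives of Angptl4 and the partners of lipoprotein lipase, none of 6 measured passed 2-fold: Angptl6 was at -0.25, -0.41 and -0.65, Angptl7 at 0.55, 0.16 and -0.002, and Lmf1, which matures the lipase, at -0.55, -0.46 and -0.46. Lipid droplet genes other than Plin2, 11 in number, had medians of 0.14, 0.09 and -0.06, the last turning to 0.11 when centred on the hybridisation controls. Cidea, a droplet fusion gene, was at 0.14, 0.46 and 0.51, and Dgat1, which makes triglyceride, at -0.31, -0.54 and -0.51.

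Genes of fatty acid synthesis and its control were also read. Their list included Mlycd, whose enzyme breaks malonyl-CoA down and so is not one of synthesis. All 8 genes of the list lay below vehicle at 12 hours, with a median of -0.56, and the medians at 2.5 and 4.5 days were -0.27 and -0.19. Scd1, a stearoyl-CoA desaturase gene and itself a target of PPAR alpha in mouse liver, was at 10.01 with vehicle and at 8.68, 7.65 and 8.65 with tamoxifen. Its second probe set gave -0.39 at 12 hours and 0.63 at 4.5 days, so the probe sets conflicted there. Scd2 was at -1.06, -0.29 and 0.34. Acacb, which makes the malonyl-CoA that restrains CPT1A, was at -0.60, -0.83 and -0.93.

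Pdk4 and Angptl4 are also known targets of the glucocorticoid receptor, and Angptl4 and Plin2 of the hypoxia-inducible factors. Of 7 glucocorticoid receptor targets, 1 was at least 2-fold higher than vehicle at 2.5 days. This was Fkbp5, a chaperone partner of the receptor, at 8.83 with vehicle and at 9.82, 10.21 and 9.23 with tamoxifen. Zbtb16 was at 0.84, 0.84 and 0.42, whereas Sgk1 was at -0.60, -1.06 and -1.60. Sgk1 was the 1 gene of the list at least 2-fold lower, at 2.5 and 4.5 days. The glucocorticoid receptor list had medians of 0.19, 0.23 and -0.19. Of 7 expressed HIF targets none was past 2-fold higher, and 1, Bnip3, was at least 2-fold lower, at 4.5 days. The medians of the HIF targets were -0.11, -0.45 and -0.50. Ndrg1 was above vehicle, at 0.90, 0.45 and 0.58, and Bnip3 and Car9 below it, Bnip3 at -0.11, -0.91 and -1.48 and Car9 at -0.64, -0.76 and -0.82. The part of the glucocorticoid receptor or of the hypoxia-inducible factors in the values of Pdk4, Angptl4 and Plin2 was not tested.

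The genes nearest in pattern to Pdk4 and Angptl4, the members past 2-fold, were sought by the distance between their 3 differences from vehicle and those of each of 12015 expressed genes. All these differences share the vehicle array. Nearest to Pdk4 were Cyp2b10, a cytochrome P450 gene, with a distance of 0.68, Klf11, a zinc finger factor gene, at 0.84, and Acot2 at 0.84. Cyp2b10 differed from vehicle by 1.54, 0.91 and 0.17, Klf11 by 1.02, 0.42 and -0.12, and Acot2 by 0.96, 0.42 and -0.26. None of the 3 reached the 1.71 of Pdk4 at 12 hours. Nearest to Angptl4 was Relb, a subunit of NF-kappa B, with a distance of 0.31. Next came the chemokine gene Cxcl10 at 0.40 and Srxn1, the sulfiredoxin gene, at 0.44. Relb differed from vehicle by 1.53, 0.92 and 0.57, Cxcl10 by 1.59, 1.15 and 0.98, and Srxn1 by 1.52, 0.97 and 0.95. With vehicle Cxcl10 was at 5.14, under that array's median, so it counted as expressed only through the tamoxifen arrays.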

How the data were processed

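Gene expression was measured on 4 arrays, 1 for each group, from RNA of gastric corpus epithelium pooled from 3 mice, amplified and labelled with biotin per the labels' protocols. The authors deposited 1 table of 45101 probe sets on the log2 scale. The submitters' processing notes name RMA and Partek, with versions not given in the sources used here. The log base is not stated and was inferred from the values, 2.06 to 14.85. RMA sets the arrays to 1 distribution, which hides shifts shared by most genes, and it compresses differences of dim genes.

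Genes were named through the platform annotation. Of all probe sets 34958 had 1 symbol, 932 several and 9211 none; the last 2 kinds, and 64 control probe sets, were left out. The members and lists were chosen with earlier results of these data known. Each gene was represented by its brightest probe set on average, and counted as expressed in a comparison if the brighter of the 2 arrays reached its own median. No limma fit or other test can be made with 1 array in each group, and the number of arrays limits the precision. The planned comparisons were differences of log2 values, counts at or past 2-fold, and list medians. Named genes were the members, up to 3 expressed genes of each pathway list with the largest difference from vehicle, list genes past 2-fold at 2.5 days, and the 3 nearest genes in pattern; Ppard, Pparg, Cd36, Mgll and the single cell markers named fall outside that rule and were chosen later. Of the lists' entries, 14 of 133 pathway entries and 6 of 65 cell marker entries are not analysed here. Alternatives changed the probe set, the centring, the fold and the filter. The counting was tested on simulated data. Python 3.11.15 with numpy, pandas and matplotlib was used.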

Additional observations from a re-analysis of the deposited data

Results flagged for a closer look

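Pdk4 differed from vehicle in opposite directions at different times, by 1.71 at 12 hours, 0.74 at 2.5 days and -0.47 at 4.5 days, each larger than any hybridisation control difference of its comparison (0.21, 0.31 and 0.29). Scd2, a fatty acid desaturase gene, was at -1.06 at 12 hours and 0.34 at 4.5 days. With 1 array in each group neither difference between times was tested. The hybridisation controls were taken as the limit after the values were seen. Against the larger of both kinds of control, 0.72 at 4.5 days, neither gene would stand here, since the 4.5-day values of both lie within it.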

How the results depend on the processing

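No paired analysis was possible because each group is 1 array and the result comes from no test. Leaving out a replicate was not possible either. Each gene was also read from the probe set whose difference was the middle one in size, or the smaller one where a gene had 2. This put Angptl4 at -0.31 at 2.5 days. The dim probe set of Angptl4 had the smaller difference at each time, so the rule itself fixed that choice. The same rule left 6 of the 8 genes expressed at 12 hours, with 1 at least 2-fold higher and a median of 0.10. At 2.5 days it left 7, with 0 higher. The mean over probe sets gave 1 and 0 as well. Centring on hybridisation controls, which shifts all genes by 0.13 at 2.5 days and 0.16 at 4.5 days, gave 2 higher at 2.5 days (median 0.23) and 1 at 4.5 days (median 0.10, against -0.06), Plin2 being the gene added at both times. It also turned the sign of 5 small differences, those of Cpt1a and Cpt2 at 2.5 days and of Acadl, Cpt2 and Hadha at 4.5 days. Centring on expressed genes moved Cpt2 at 12 hours to 0.05 and Hadha at 2.5 days to -0.02. Among single list genes, the same 2 centrings moved Fkbp5 at 12 hours to 1.05 and Acsl4 at 2.5 days to 1.05, past 2-fold, and Scd2 at 12 hours to -0.99 and Sgk1 at 2.5 days to -0.93, short of it. At 1.5-fold, 3 of the 8 genes were higher and 1 lower at 2.5 days, and 2 higher and 1 lower at 4.5 days. The other 50 of 63 counts and medians recomputed for the 8 genes stayed within 1.5 times the count or 1 SD of the hybridisation controls. The lone vehicle array enters every comparison, and what pools of other mice would show cannot be seen here.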
